A study of Ovis aries with 6 samples.

Results

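Theca cells that make steroids were taken from single-cell RNA sequencing of the ovaries of 6 Hu ewes. The cells were chosen by the RNA of CYP17A1 and INSL3, counted as unique molecular identifiers (UMI), so that each captured RNA molecule counts once. A barcode was a member when it held at least 1000 UMI, at most 10% of its UMI in mitochondrial genes, a UMI sum of CYP17A1 and INSL3 of at least 20, and a sum at least 3 times that of PECAM1, KDR, FST and PTPRC, which mark endothelial, granulosa and immune cells. Of 38465 barcodes that passed the first 2 limits, out of 52290 deposited, 258 were members (0.671%). The 3 HLS ewes had a litter size of at least 3 and the 3 LLS ewes a litter size below 2. All were untreated Hu ewes in oestrus, and 1 whole ovary of each was digested with collagenase and trypsin into 1 library. Each matrix held between 7992 and 9135 barcodes and between 43329214 and 75549906 UMI. The single ovary of a ewe is the replicate throughout, and no pairing of ewes is given.

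Theca cells lie outside the basement membrane of the growing follicle. The inner layer, the theca interna, responds to luteinizing hormone through the receptor LHCGR, turns cholesterol into androgens, and passes these to the granulosa cells, whose aromatase makes oestrogens from them. CYP17A1 is the enzyme that carries the pathway from progestagens to androgens, and INSL3 is a relaxin-like peptide hormone that theca interna and Leydig cells secrete. The outer layer, the theca externa, is made of fibroblasts and smooth muscle-like cells.

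HLS replicates 1, 2 and 3 held 98, 49 and 38 members, and LLS replicates 1, 2 and 3 held 15, 2 and 56. HLS replicate 1 therefore gave 38.0% of all members, and LLS replicate 2 gave 2 cells, so that values are set out by ewe, and means are taken over the 5 ewes with at least 10 members. The members were deep cells, with a median of 24089 UMI against 7114 UMI over all barcodes that passed the limits. Since the rule asks for a number of UMI, it favours deep barcodes. The median mitochondrial share of members was highest in HLS replicate 3 (8.58%) and lowest in HLS replicate 1 (4.01%). Of the 258 members, 11 (4.26%) resembled simulated doublets, against 5.22% of all barcodes that passed. No member barcode was shared between libraries, while pairs of libraries shared from 13 to 28 barcodes in all.

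The label was checked on genes that the rule did not use. LHCGR stood at 8.48, 14.3 and 17.0 UMI per 10000 UMI in the members of HLS replicates 1, 2 and 3 (mean over the cells of each ewe) and at 18.2, 13.7 and 17.7 in those of LLS replicates 1, 2 and 3. It was present in 100% of members, against 3.43% of endothelial cells, which should lack it and had a median depth between 6510 and 12680.5 UMI in the 6 ewes. HLS replicate 1 was the lowest of the 6 ewes, and the lowest member level was still above the highest stromal one (1.85). FABP3, a fatty acid-binding protein and the second marker outside the rule, was uneven, at 1.12, 6.94 and 2.20 in the HLS ewes and at 0.475, 0 and 4.45 in the LLS ewes. The 2 members of LLS replicate 2 held no FABP3 among 31682 UMI, which allows up to 0.947 per 10000, and intervals and limits of this kind cover counting error only. LHCGR was above the stromal level of the same ewe in 6 of 6 ewes and FABP3 in 5 of 6, and the cells are called theca-like here by these markers.

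Markers of other cells were low but not all absent. The rule itself holds down PECAM1, KDR, FST and PTPRC, and granulosa, endothelial, immune and perivascular cells were chosen by some of their own markers, so the sums that follow leave out both kinds of gene and are means over the same 5 ewes. The 6 remaining granulosa genes summed to 8.12 ± 2.74 UMI per 10000 UMI in members, 4.91 in stroma and 63.6 in granulosa cells, and the largest part in members was GJA1, a gap junction gene, at 4.14 against 1.26 in stroma. The 5 remaining endothelial genes summed to 1.81 ± 0.607, near the 1.70 of stroma and below the 21.05 of endothelial cells, and most of it was CD34 (1.56). The 6 remaining immune genes summed to 0.349 ± 0.481 against 39.03 in immune cells, with CD74 the most abundant (0.285). LLS replicate 3 was highest in that sum (1.11) and HLS replicate 2 lowest (0.0220). The 4 remaining perivascular genes summed to 0.0342 against 4.66 in perivascular cells. Of the genes that chose the granulosa cells, the aromatase gene CYP19 stood at 0.00220, FSHR at 0.00201 and AMH at 0.0199 in members. The Schwann cell genes CDH19 and SOX10 were at 0 in every ewe, which allows up to 0.00467 per 10000 over all 6428747 UMI of the members. Of 4 measured genes of the luteal list, 3 were higher than in stroma (HSD3B1, LHCGR and STAR, which theca cells share) and 1 was lower (PTGFR, 0.0481 against 0.781), with a median log2 ratio of 1.99. OXT, the oxytocin gene, stood at 0.102 against 0.213. The part of other cells' genes in the results was not tested.

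With a UMI sum of 20 to 24 (80 cells) LHCGR was 14.6 UMI per 10000 UMI, and with a sum of 15 to 19 (125 cells) it was 11.9, over the cells of all ewes together. By ewe it was higher just inside than just outside in 5 of 6, but LLS replicates 1 and 2 had only 4 and 1 cells inside. In HLS replicate 1 it stood at 5.67 inside (12 cells) and 6.52 outside (16 cells). Stromal cells with none of both genes (8362 cells) held 0.50, and barcodes with a sum of 1 to 4 (752 cells) already held 4.29. CYP11A1 climbed over the same range from 0.608 to 7.48 just outside the limit, 8.31 just inside and 10.3 at a sum of 50 or more. LHCGR stood at 10.98 and FABP3 at 1.39 at a sum of 50 or more, against 14.6 and 3.59 at 20 to 24, but the ewes differ between these bins. HLS replicate 1, low in both genes, gave 46 of the 55 cells at the top and 12 of the 80 at 20 to 24. Within HLS replicate 1 LHCGR went from 5.67 to 9.79 and FABP3 from 1.07 to 1.09, and in the other 5 ewes LHCGR went from 16.1 to 17.1 and FABP3 from 4.04 to 2.94, the last with 9 cells. STAR, whose protein brings cholesterol into the mitochondrion, went from 0.236 just outside to 0.525 just inside, and stood at 0.479 at 50 or more. Within HLS replicate 1 STAR went from 0.0570 just outside to 0 just inside, and in the other 5 ewes from 0.262 to 0.618. DCN, the matrix gene decorin, went the other way, from 62.2 in stroma to 11.02 at a sum of 5 to 9 and to 9.04 at the top. Mean LHCGR and CYP11A1 were thus already far above stroma just below the limit of 20. These are means over cells, and whether single cells form a continuous range was not tested. A limit of 10 would have taken 597 cells.

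**Figure D1:**
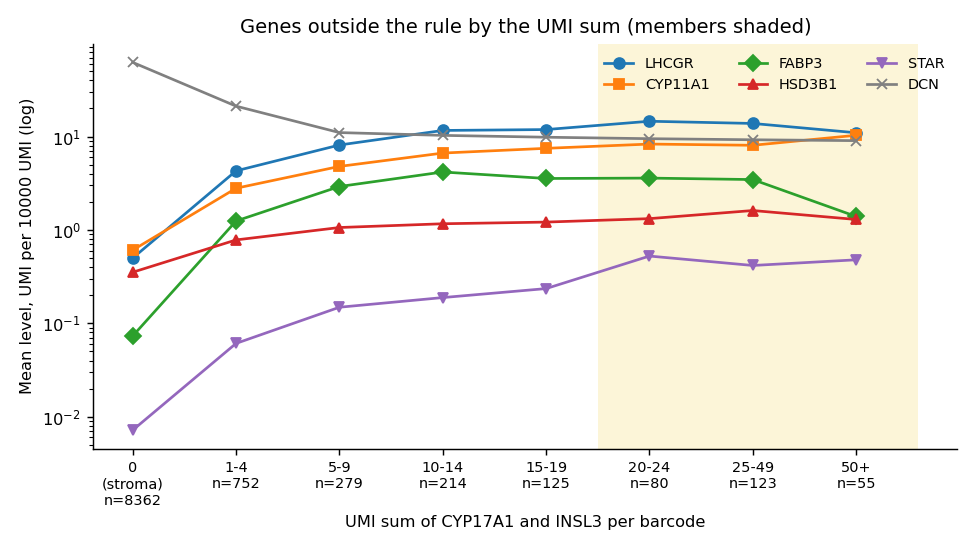
Mean level (UMI per 10000 UMI, log axis) of 6 genes by the UMI sum of CYP17A1 and INSL3 per barcode, with the number of barcodes under each bin and the members shaded. LHCGR climbs from 0.50 in stroma with neither gene to 11.9 at a sum of 15 to 19 and 14.6 at a sum of 20 to 24 and stands at 10.98 at 50 or more, where HLS replicate 1 gives 46 of 55 cells, while DCN goes from 62.2 to 9.48.

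The members held RNA for the steps from cholesterol towards androgen. Because expression chose the members, their levels against stroma (9431 cells with at least 10 UMI of DCN, LUM and PDGFRA) are a description without a test. Stromal, granulosa and endothelial values are means over the 6 ewes, and ratios are taken over the same 5 ewes in both kinds of cell. At a limit of 2-fold and the same direction in all 5 ewes, 216 of 3431 genes measured (6.3%) were higher in members and 532 (15.5%) were lower, and the median log2 ratio over all genes measured was -0.14. Against stromal cells with at least 10000 UMI, which are nearer to the members in depth, 140 were higher and 401 lower of 3325. Of 10 measured genes for steroid synthesis other than CYP17A1, 7 were higher (STAR, CYP11A1, HSD3B1, FDX1, FDXR, HSD17B12 and HSD17B10), 1 was lower (TSPO) and 2 were neither, with a median log2 ratio of 1.57, and against deep stroma 5 were higher and 1 lower.

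CYP11A1, which cuts the side chain of cholesterol in the first step of steroid synthesis, stood at 7.60, 5.31 and 10.4 UMI per 10000 UMI in the HLS ewes and at 11.2, 12.2 and 11.2 in the LLS ewes. Stroma held 0.897, and the ratio over 5 ewes was 10.2 (5.68 against deep stroma). HLS replicate 2 was lowest, and HLS replicate 3 lay close to the LLS ewes. FDX1, the ferredoxin that feeds electrons to CYP11A1, ran at 16.2, 9.35 and 17.8 in the HLS ewes and at 11.1, 15.9 and 17.4 in the LLS ewes, with a ratio of 13.0. FDXR, the reductase that charges FDX1, was at 1.17 ± 0.249 (mean ± SD, n = 5 ewes) and 6.997 times stroma (3.75 times deep stroma). Both partners of the electron chain were thus higher in members of all 6 ewes.

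STAR stood at 0.279, 0.412 and 0.711 UMI per 10000 UMI in the HLS ewes and at 0.774, 0.396 and 0.582 in the LLS ewes, and 44.2% of members held at least 1 UMI, against 0.621% of endothelial cells. Endothelial cells were shallower, with medians by ewe between 6510 and 12680.5 UMI against 24089 over all members, which lowers detection in them. The ratio of STAR to stroma, which held 0.0129, was 38.3, and to deep stroma it was 13.8. HSD3B1, which turns pregnenolone into progesterone, was at 1.03, 1.07 and 1.70 in the HLS ewes and at 1.12, 0.262 and 2.51 in the LLS ewes, 3.17 times stroma and 2.03 times deep stroma. TSPO, a protein of the outer mitochondrial membrane, was lower, at 0.218 ± 0.158 against 1.45 in stroma. HSD17B1, which makes oestradiol in granulosa cells, was at 0.856 ± 0.609 in members and 6.32 in granulosa cells, and over these 5 ewes it varied from 0.0492 in LLS replicate 1 to 1.46 in HLS replicate 3. HSD11B1, which converts glucocorticoids, was at 0 in the members of every ewe.

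The counts list CYP17A1 beside a second feature named CYP17, and both lie next to each other in the RefSeq annotation of ARS-UI_Ramb_v3.0. CYP17 drew 164, 164 and 155 UMI in the members of HLS replicates 1, 2 and 3 and 41, 0 and 268 in those of LLS replicates 1, 2 and 3. Its part in the sum of both features was 6.43% in HLS replicate 1 and from 14.8% to 17.3% in the other 4 ewes with any. How reads were divided between both features is uncertain, so the level of CYP17A1 is uncertain to that extent. With CYP17 added to the sum, the rule would have taken 304 cells.

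Of 13 measured genes that supply cholesterol, 5 were higher than in stroma (SCARB1, FDPS, NSDHL and APOA1 among them), 0 lower and 8 neither, with a median log2 ratio of 0.68. SCARB1, the receptor that takes cholesterol ester from high-density lipoprotein, stood at 2.76 ± 0.616 UMI per 10000 UMI (n = 5 ewes), 15.5 times stroma, and endothelial cells held 1.83. APOA1, the main apolipoprotein of that particle, was at 85.6, 118 and 83.0 in the HLS ewes and at 80.8, 74.4 and 132 in the LLS ewes, against 10.3 in stroma and 22.9 in endothelial cells. Of 5 lipid-handling genes measured, FABP3 alone was higher.

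Of 7 measured genes of LH receptor and cAMP signalling, 3 were higher (LHCGR, PRKAR2B and PDE8B) and 1 was lower (RGS2), with a median log2 ratio of 0.19, and against deep stroma 1 was higher and 1 lower. LHCGR was 15.3 times stroma over 5 ewes and 7.98 times deep stroma. PRKAR2B, a regulatory subunit of protein kinase A, was at 7.29 ± 1.31 UMI per 10000 UMI (n = 5 ewes) against 2.64, and PDE8B, a phosphodiesterase that breaks down cAMP, at 1.04 ± 0.374 against 0.366. RXFP2, the receptor of INSL3, was at 0 in the members of all ewes, and RXFP1 at 0.00449.

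**Figure D2:**
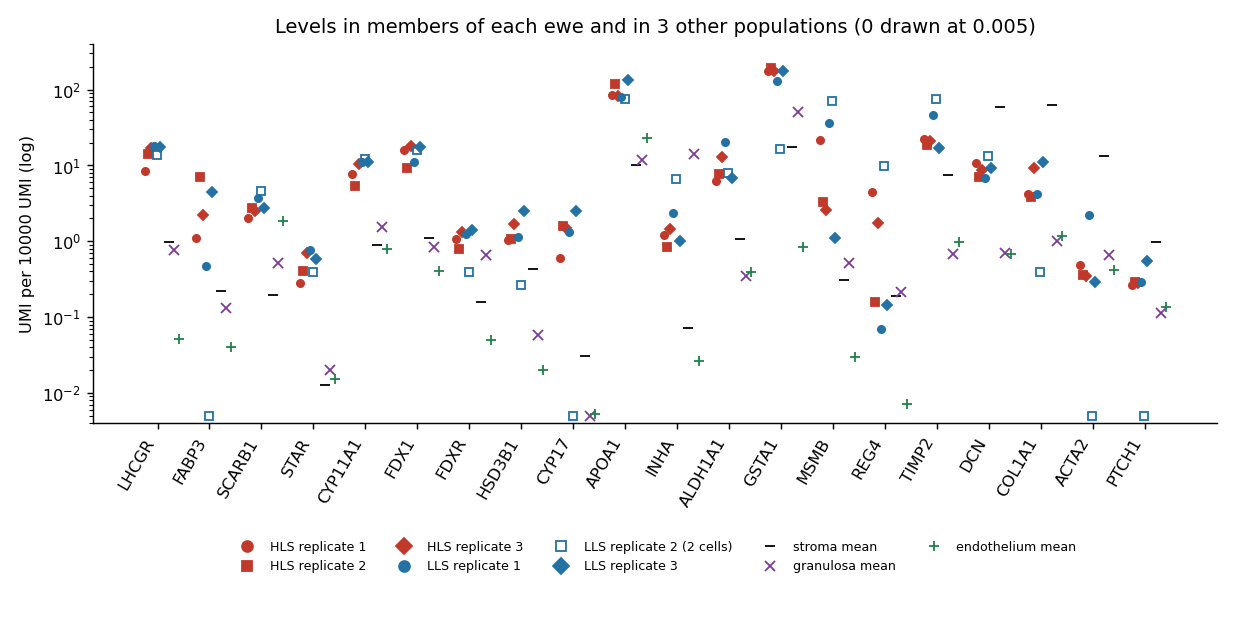
Levels (UMI per 10000 UMI, log axis, 0 drawn at 0.005) of 20 genes in the members of each ewe (red HLS, blue LLS, open squares the 2 cells of LLS replicate 2) and the means over ewes in stroma, granulosa and endothelial cells. LHCGR, CYP11A1, FDX1 and APOA1 lie above the stromal mean in all 6 ewes, while DCN and COL1A1 lie below it; MSMB spans 1.09 to 71.9.

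By ratio to stroma, here over all 6 ewes, the 2 cells of LLS replicate 2 included, 20 genes led among those with a mean of at least 1 UMI per 10000 UMI and a higher level in 6 of 6 ewes: MSMB, INHA, SCARB1, LHCGR, REG4, FDX1, TMEM132A, CYP11A1, TMEM200A, AS3MT, ALDH1A1, CPXM2, APOA1, GSTA1, ERP27, PSMB9, TNNI3, SLC16A7, FDXR and GRB14. Over 5 ewes TMEM132A averaged 0.814, and REG4 (18.4) had a larger ratio than SCARB1 (15.5) and LHCGR (15.3). GSTA1, a glutathione transferase that also acts on steroid intermediates, was the most abundant of them, at 178, 192 and 178 in the HLS ewes and at 129, 16.5 and 176 in the LLS ewes. Stroma held 17.5, deep stroma 38.2 and granulosa cells 50.3, so the 2 cells of LLS replicate 2 lay near stroma. ALDH1A1, an enzyme that makes retinoic acid, was at 6.32, 7.70 and 13.1 in the HLS ewes and at 20.6, 7.91 and 6.91 in the LLS ewes, 9.82 times stroma. ERP27, a protein of the endoplasmic reticulum, stood at 9.25 ± 3.54 against 1.07, and TNNI3, known as cardiac troponin I, at 3.47 ± 0.217 against 0.425, the latter with 5.91 in granulosa cells. TNNI3 had a small spread for its level. INHA, the inhibin alpha subunit, was at 1.38 ± 0.606, far below the 14.2 of granulosa cells but 19.6 times stroma. PSMB9, a subunit of the immunoproteasome, was 8.11 times stroma (4.74 times deep stroma) and GRB14, an adaptor of the insulin receptor, 5.78 times, with 11.1 in LLS replicate 1 and 1.49 in LLS replicate 3.

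Other genes of lists stood out one by one. KIT, the receptor of KIT ligand, was at 0.539 ± 0.338 UMI per 10000 UMI (n = 5 ewes) against 0.0423 in stroma, 13.7 times, and was the 1 gene of 8 measured for vessel and growth signals that was higher. STC1, a secreted glycoprotein, was 7.15 times stroma, with 5.93 in HLS replicate 2 and 1.23 in HLS replicate 1. TIMP2, an inhibitor of matrix proteases, was at 22.7, 18.4 and 20.8 in the HLS ewes and at 46.4, 75.1 and 16.7 in the LLS ewes, against 7.39 in stroma. GJA1 was 3.27 times stroma. Of 17 measured genes of the antioxidant and haem list, 6 were higher (GSTA1, GPX4, SOD1, PRDX3, ALAS1 and MGST1) and 2 lower (GSTM3 and GPX3). Against deep stroma 5 of 16 were higher and 0 lower. IGF2, a growth factor, was at 13.96 ± 2.30 against 13.7, and IGF1 at 0.0490 against 2.79, so of the 2 ligands IGF1 was the one with a lower level.

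Most matrix and contractile genes measured were lower in members. Of 24 measured matrix genes, 18 were lower and 1 (TIMP2) higher, with a median log2 ratio of -1.78. COL1A1, a chain of type I collagen, was at 4.17, 3.84 and 9.26 UMI per 10000 UMI in the HLS ewes and at 4.23, 0.396 and 10.99 in the LLS ewes, against 62.4 in stroma. COL1A1 was highest in HLS replicate 3 and LLS replicate 3. DCN, LUM and PDGFRA chose the stromal cells, so their lower level in members follows from that choice. DCN and LUM are among the 18 lower matrix genes and enter the median. Of 10 measured genes of theca externa and smooth muscle, 9 were lower, among them ACTA2 (0.744 ± 0.834 against 13.2) and TAGLN (0.448 ± 0.270 against 10.4). LLS replicate 1 stood apart for ACTA2, at 2.23 against at most 0.493 in the others.

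PTCH1 and GAS1, which bind hedgehog ligands and were the 2 measured genes of the hedgehog list, were both lower, at 0.335 ± 0.116 against 0.987 and at 0.737 ± 0.255 against 3.30. Of 14 measured gonadal transcription factors, 8 were lower and 0 higher: TCF21, WT1, MAF, TBX3, ID1, ID2, ID3 and CEBPB. Against deep stroma 4 of 11 were lower (TCF21, ID1, ID2 and ID3). GATA4 and GATA6, factors of gonadal somatic cells, had ratios of 0.866 and 0.892. NR2F2, the nuclear receptor COUP-TFII of stroma and theca, was at 5.32 ± 0.880 against 6.63. NR5A1, the steroidogenic factor, was detected in 16.7% of members, at 0.0795 ± 0.0399, and fell under the 0.5 UMI per 10000 UMI that a gene needed to count as measured. Of 5 measured nuclear receptors, 1 was lower (NR2F1) and 0 higher, and against deep stroma 0 of 4 were lower and 0 higher. Of 12 IGF system genes, 5 were lower (IGF1, IRS2, IGFBP3, IGFBP6 and IGFBP7) and 1 higher (STC1), and of 7 measured genes for BMP, activin and inhibin signals, 2 were lower (TGFB2 and TGFBR2) and 1 higher (INHA).

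Of 18 measured immediate early genes, 10 were lower than in all stroma, with a median log2 ratio of -1.20. Against deep stroma 2 of 17 were lower (EGR3 and KLF2), with a median of -0.43. FOS had a ratio of 0.356 to all stroma and 0.712 to deep stroma, and JUNB ratios of 0.438 and 1.003. KLF2 had ratios of 0.219 and 0.372. The 2 cells of LLS replicate 2 held the most FOS, 92.6 UMI per 10000 UMI against 14.96 to 31.4 in the other ewes. Of 20 cell cycle genes 3 were measured and 2 of them were lower (TOP2A and CENPF), and against deep stroma all 8 measured were lower. The list summed to 6.37 UMI per 10000 UMI in LLS replicate 3 and to at most 2.64 in the other ewes. At least 5 UMI in 13 cell cycle genes were found in 4.08%, 0% and 7.89% of the members of HLS replicates 1, 2 and 3, and in 6.67%, 0% and 10.7% of those of LLS replicates 1, 2 and 3. Stromal cells with at least 10000 UMI reached it at 18.01%, 22.1% and 27.97% in HLS replicates 1, 2 and 3, and at 11.1%, 15.1% and 41.7% in LLS replicates 1, 2 and 3. The share was lower in members in 6 of 6 ewes, but 15 members in LLS replicate 1 (exact 95% binomial interval 0.169 to 31.9) and 2 in LLS replicate 2 say little. Of the members, 256 reached that depth.

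INSL3 and CYP17A1 were not in a fixed proportion. CYP17A1 stood at 7.95, 7.67 and 8.66 UMI per 10000 UMI in the members of HLS replicates 1, 2 and 3 and at 7.24, 0 and 11.6 in those of LLS replicates 1, 2 and 3. INSL3 stood at 14.5, 5.22 and 2.87 in the HLS ewes and at 10.6, 16.7 and 1.56 in the LLS ewes. Apart from LLS replicate 2, CYP17A1 kept within a narrow range while INSL3 differed widely, and both groups held ewes with high and with low INSL3. Both genes set the rule, so these values are a description.

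As a share of the UMI of both genes, INSL3 made up 63.1%, 41.4% and 24.5% in the members of HLS replicates 1, 2 and 3, and 57.3%, 100% and 11.9% in those of LLS replicates 1, 2 and 3. INSL3 exceeded CYP17A1 in 81 of 98 members of HLS replicate 1, 11 of 49 of HLS replicate 2, 3 of 38 of HLS replicate 3, 9 of 15 of LLS replicate 1, both of LLS replicate 2 and 0 of 56 of LLS replicate 3. In LLS replicate 3, 11 members had no INSL3 at all, and the 2 members of LLS replicate 2 had no CYP17A1. Barcodes with a sum of 5 to 19, which are not members, also ran from a high share to a low one, with 67.2%, 42.6% and 42.2% in HLS replicates 1, 2 and 3 and 35.1%, 83.0% and 12.7% in those of the LLS group. LLS replicate 1 and HLS replicate 3 moved most between both sets of cells, and LLS replicate 2 stayed highest and LLS replicate 3 lowest. The 24 such barcodes of LLS replicate 2 held 42 UMI of CYP17A1, so the gene was not missing from that ovary.

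**Figure D3:**
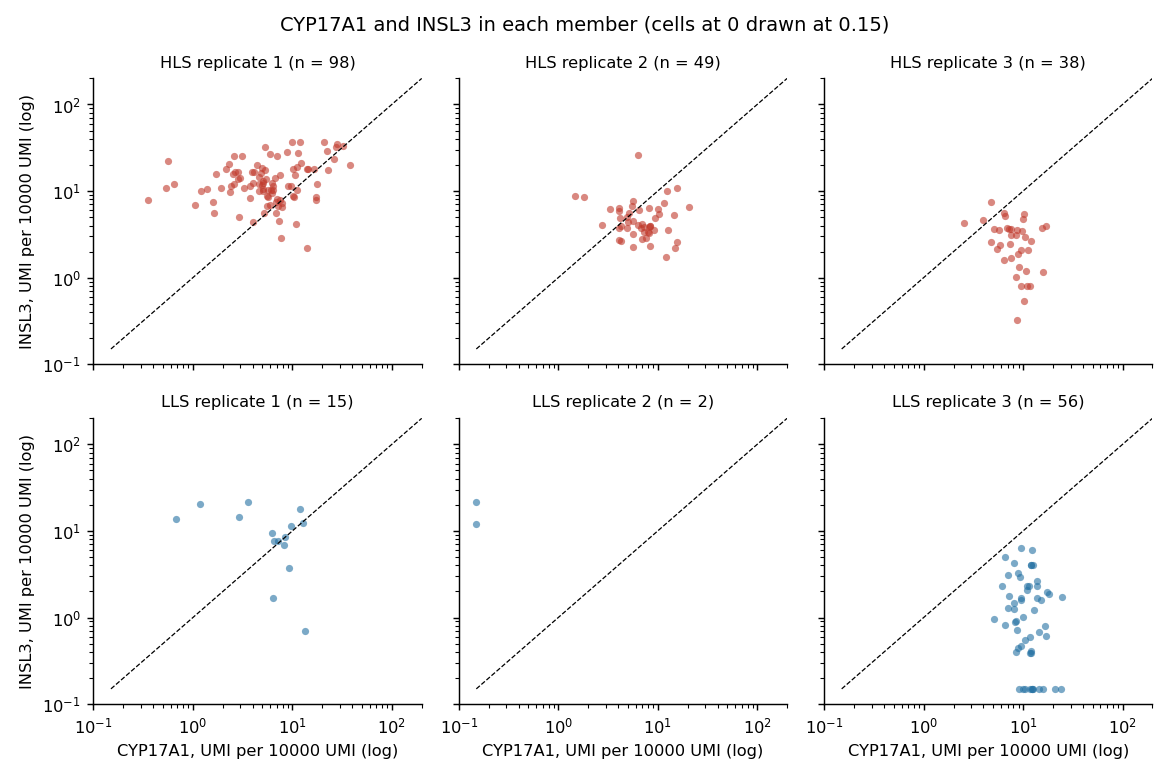
CYP17A1 against INSL3 (UMI per 10000 UMI, both axes log, 0 drawn at 0.15) in each of the 258 members, 1 panel per ewe, with the line of equality dashed. Most members of HLS replicate 1 lie above the line (81 of 98), and none of the 56 members of LLS replicate 3 does.

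**Figure D4:**
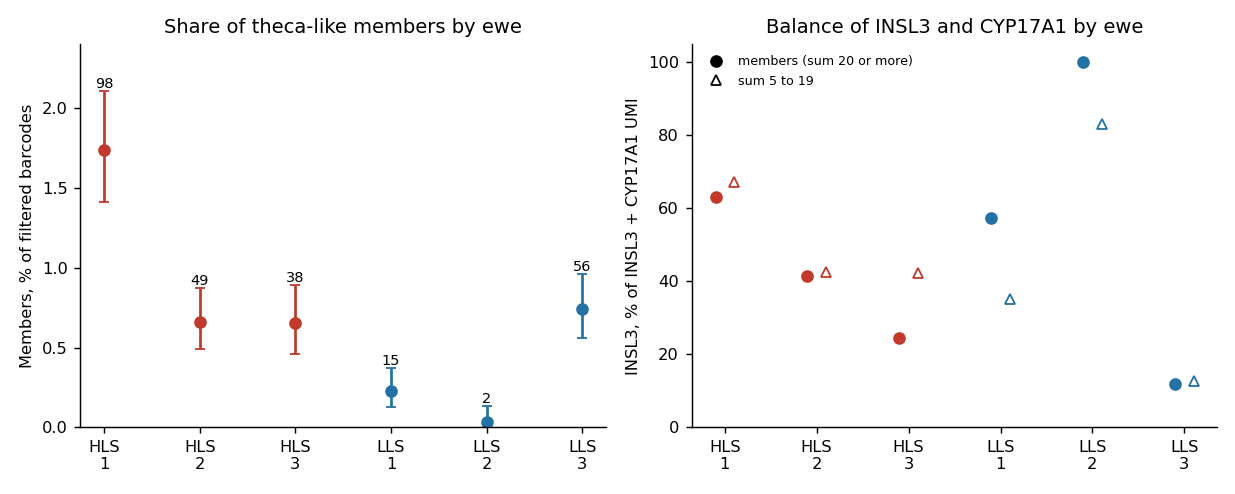
Left, members as a percent of barcodes that passed the limits, by ewe, with exact 95% binomial intervals and the number of members above each. Right, INSL3 as a percent of the UMI of INSL3 and CYP17A1 in members (filled) and in barcodes with a sum of 5 to 19 (open); in members LLS replicate 3 is lowest (11.9%) and LLS replicate 2 highest (100%).

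MSMB and REG4 differed widely between ewes. MSMB, a small secreted protein best known from seminal plasma, stood at 21.7, 3.35 and 2.62 UMI per 10000 UMI in the members of HLS replicates 1, 2 and 3 and at 36.1, 71.9 and 1.09 in those of LLS replicates 1, 2 and 3. It was high in HLS replicate 1 and LLS replicates 1 and 2, and low in the other 3. REG4, a secreted lectin of the gut, stood at 4.48, 0.157 and 1.73 in the HLS ewes and at 0.0696, 9.71 and 0.145 in the LLS ewes. REG4 was high in HLS replicate 1 and LLS replicate 2 but not in LLS replicate 1, so both genes did not share 1 pattern. In barcodes with a sum of 5 to 19, MSMB was at 3.45, 1.01 and 0.658 in the HLS ewes and at 4.43, 12.8 and 0.640 in the LLS ewes, and REG4 reached 2.18 in LLS replicate 2, in 58.3% of the cells. Endothelial cells held 0.0301 of MSMB and 0.00706 of REG4 as a mean over ewes.

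How members of 1 ewe differ was tested within ewes. In the 4 ewes with at least 30 members (the 3 HLS ewes and LLS replicate 3), members were ranked by the INSL3 share of their INSL3 and CYP17A1 UMI and split into 3 ranges of equal size. The split uses the proportion of the same 2 genes whose sum chose the members, so both are given without a test, and the ranges are not independent of the rule: a test between them describes cells that the rule had already picked. The median sum was 50.5 UMI in the bottom and 36 in the top range of HLS replicate 1, 26.5 and 23 in HLS replicate 2, 31 and 24.5 in HLS replicate 3, and 23.5 and 25 in LLS replicate 3. The median INSL3 share was 48.2% and 85.2% in the bottom and top range of HLS replicate 1, 27.4% and 56.4% in HLS replicate 2, 8.85% and 39.9% in HLS replicate 3, and 0% and 24.6% in LLS replicate 3, so the names of the ranges are relative to the ewe. The UMI of the top range, called INSL3-rich, and of the bottom range, called CYP17A1-rich, were summed per ewe (12 to 32 cells a sum) and compared in edgeR by its quasi-likelihood test, the ewe being a term. Of 5564 genes tested outside the rule, 11 (0.198%) had an adjusted p under 0.05, of which 5 were higher and 6 lower in INSL3-rich members, and 440 had an unadjusted p under 0.05. The adjustment ran over 5567 genes, rule genes included, and over the 5564 alone the same 11 were called, with ANGPT2 at an edgeR adjusted p of 0.0452. DESeq2 called 0 genes, CYP17A1 and INSL3 included, with 104 at an unadjusted p under 0.05. The ranges are cuts of a ranking and not cell types, and 71 of the 156 cells lay within 5 percentage points of the edge of their range. Among these were all 18 cells of the bottom range of LLS replicate 3, which spans only 0% to 4.55%. Without HLS replicate 2 the test called 2 genes, without HLS replicate 3 it called 5, without HLS replicate 1 it called 6, and without LLS replicate 3 it called 29, of which 7 were higher and 22 lower. At a UMI sum of at least 10 it called 45, of which 39 were higher and 6 lower. With ranges set within the cells of lower and of higher UMI sum of each ewe, so that the median sums were 46.5 and 46.5 in HLS replicate 1, 26.5 and 24.5 in HLS replicate 2, 27.5 and 27 in HLS replicate 3, and 24 and 23.5 in LLS replicate 3, it called 8 genes, 7 of them among the 11. Both settings were chosen after the data were seen.

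ECRG4, which encodes a secreted peptide precursor, had the smallest adjusted p of them. It went from 61.0 to 292 CPM (UMI scaled to a common library total) between CYP17A1-rich and INSL3-rich members of HLS replicate 1, from 507 to 1661 in HLS replicate 2, from 21.9 to 318 in HLS replicate 3 and from 270 to 370 in LLS replicate 3. The log2 fold change was 1.75 (SE 0.251, edgeR adjusted p = 0.00294), and LLS replicate 3 moved least. IGFBP5, a binding protein of insulin-like growth factors, rose by 1.21 on the log2 scale (SE 0.222, edgeR adjusted p = 0.0104), from 339 to 1430 CPM in HLS replicate 3 and from 212 to 1073 CPM in LLS replicate 3 but from 385 to 549 and from 2011 to 2445 in HLS replicates 1 and 2. ANGPT2, an antagonist of the vessel receptor TIE2, rose by 1.31 (SE 0.273, edgeR adjusted p = 0.0383), with 42.8 and 117 CPM in HLS replicate 1 and 5.24 and 12.7 CPM in LLS replicate 3. CEP55, a protein of the midbody in dividing cells, rose by 1.47 (SE 0.284, edgeR adjusted p = 0.0194).

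In INSL3-rich members 5 named genes fell in all 4 ewes. REG4 fell by 1.35 on the log2 scale (SE 0.232, edgeR adjusted p = 0.00731), from 1066 to 291 CPM in HLS replicate 1, 36.7 to 11.7 in HLS replicate 2, 175 to 135 in HLS replicate 3 and 18.3 to 10.1 in LLS replicate 3. With ranges of like UMI sum it was at -0.45 (SE 0.185, edgeR adjusted p = 0.706). PLPP3, which removes phosphate from lipid mediators, fell by 1.02 (SE 0.203, edgeR adjusted p = 0.0246), with 104.7 to 193 CPM in CYP17A1-rich and 67.4 to 81.0 CPM in INSL3-rich members. TM4SF1, a surface protein, fell by 1.55 (SE 0.283, edgeR adjusted p = 0.0104). With called doublets removed it was at -0.17 (edgeR adjusted p = 0.944). SPON2, a secreted matrix protein, fell by 1.65 (SE 0.279, edgeR adjusted p = 0.00731), from 549 to 201 CPM in HLS replicate 1 but from 13.1 to 12.7 CPM in LLS replicate 3. ASS1, an enzyme of arginine synthesis, fell by 1.71 (SE 0.348, edgeR adjusted p = 0.0298), mostly in HLS replicate 3, from 222 to 33.7 CPM.

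Leaving out ewes or doublets ended several of these calls. Without HLS replicate 2 none of the 9 genes above kept an adjusted p under 0.05, while their changes stayed near the values above or were larger (ECRG4 at 1.78, IGFBP5 at 1.60, SPON2 at -1.63). Without HLS replicate 1 the change of REG4 was -0.64 (edgeR adjusted p = 0.791), and CEP55, ANGPT2, PLPP3 and SPON2 lost their call at changes of 1.09, 1.15, -0.78 and -2.13. TM4SF1 had no value in that fit. Without HLS replicate 3 the change of ASS1 was -0.91 (edgeR adjusted p = 0.765), and CEP55, ANGPT2, IGFBP5 and PLPP3 lost their call at 1.43, 1.204, 0.94 and -0.96, while without LLS replicate 3 IGFBP5 did at 0.89. With called doublets removed, CEP55, ANGPT2, PLPP3 and ASS1 lost their call at 1.37, 1.46, -0.91 and -1.81, close to their changes with doublets kept, and TM4SF1 at -0.17. At a UMI sum of at least 10, which takes in cells below the limit of the rule, PLPP3 was at -0.29 (edgeR adjusted p = 0.872), ASS1 at -0.79 (0.679), SPON2 at -0.87 (0.467), TM4SF1 at -0.65 (0.396), REG4 at -1.12 (0.229) and CEP55 at 1.10 (0.104), so that ECRG4, ANGPT2 and IGFBP5 alone of the 9 kept their call. With ranges of like UMI sum ECRG4, CEP55, PLPP3, TM4SF1 and SPON2 kept theirs, and IGFBP5 (0.71, edgeR adjusted p = 0.416), ANGPT2 (1.26, 0.0590), ASS1 (-1.55, 0.0919) and REG4 lost it. ANGPT2 lost it without TMM factors as well (edgeR adjusted p = 0.0629). With members split into 2 ranges in place of 3, CEP55 lost its call at 0.73 (edgeR adjusted p = 0.138).

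CENPF, a kinetochore gene of dividing cells, and LOC114108679 were also called but lay outside the rule for named genes, and they are named after their values were seen. CENPF averaged 19.1 CPM, with 75.9 CPM in INSL3-rich members of LLS replicate 3 and 55.1 CPM in those of HLS replicate 3. Its change was 4.05 (edgeR adjusted p = 0.00621), but 0.096 at a UMI sum of at least 10 (edgeR adjusted p = 0.999). With doublets removed it was not among the genes tested, and 3 of the 12 INSL3-rich cells of HLS replicate 3 were called doublets. LOC114108679 was lower in 3 of 4 ewes, and 270 against 15.2 CPM in LLS replicate 3.

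**Figure D5:**
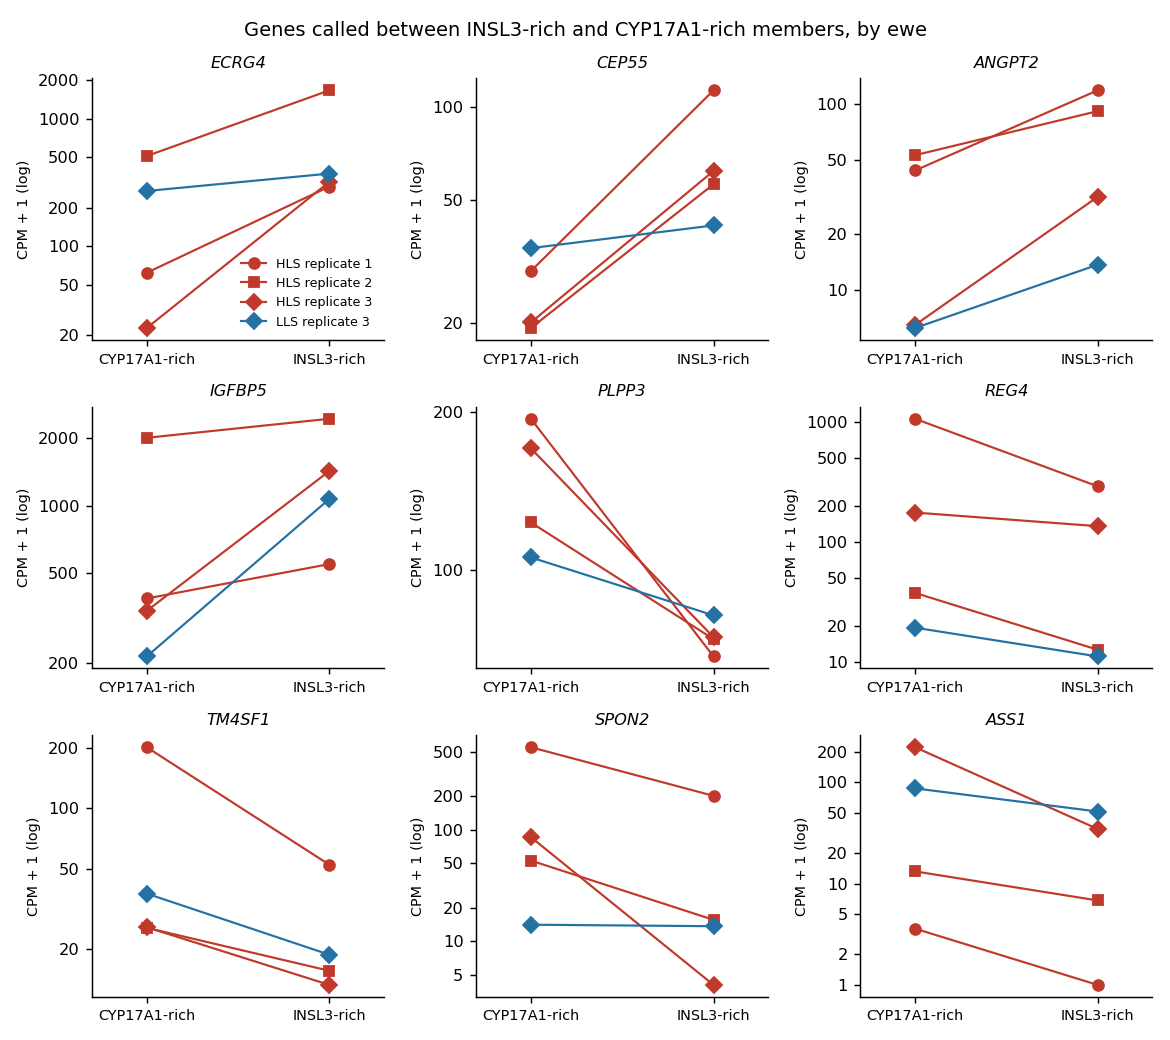
CPM + 1 (log axes, a range of its own for each gene) of the 9 genes named by the rule in CYP17A1-rich and INSL3-rich members of 4 ewes, joined by ewe. All lines climb for ECRG4, CEP55, ANGPT2 and IGFBP5 and descend for PLPP3, REG4, TM4SF1, SPON2 and ASS1, and in LLS replicate 3 ECRG4, CEP55 and SPON2 are nearly level.

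None of the 11 tested steroid synthesis genes was called between both ranges, and 10 of the 11 had a value below 0, with a median log2 fold change of -0.26 against -0.0058 over all genes tested. STAR was at -0.97 (SE 0.249, edgeR adjusted p = 0.148), CYP11A1 at -0.47 (SE 0.110, edgeR adjusted p = 0.107) and HSD3B1 at -0.56 (SE 0.212, edgeR adjusted p = 0.469), each below 0 in 4 of 4 ewes. CYP17A1-rich members had the higher median UMI sum in 3 of these ewes. In HLS replicate 1 CYP11A1 stood at 4.25 UMI per 10000 UMI at a sum of 20 to 24 and at 10.16 at 50 or more. There STAR went from 0 to 0.427 and HSD3B1 from 0.348 to 1.42. Over the other 5 ewes CYP11A1 went from 9.02 to 11.1, STAR from 0.618 to 0.745 and HSD3B1 from 1.49 to 0.650, with 9 cells at 50 or more. The cause of the lower values was not tested. With ranges of like UMI sum, STAR was at -0.98 (edgeR adjusted p = 0.201), CYP11A1 at -0.37 (edgeR adjusted p = 0.374) and HSD3B1 at -0.53 (edgeR adjusted p = 0.569), and the median of the 11 genes was -0.17, again with 10 below 0 and 0 called. The feature CYP17 was at -0.94 (SE 0.215), beside -1.15 for CYP17A1, which set the ranges. Reads may be divided between both features, so this value is a description, although CYP17 was among the 5564 genes. It was not called. Of 22 cholesterol supply genes, 0 were called and 18 lay below 0, with a median of -0.27. Of 22 matrix genes, 0 were called and 17 lay below 0, with a median of -0.24. LHCGR was at -0.11 (SE 0.132, edgeR adjusted p = 0.908), and MSMB, lower in 3 of 4 ewes, at -0.62 (SE 0.337, edgeR adjusted p = 0.658). Of 10 IGF system genes 1 rose (IGFBP5), of 9 for vessel and growth signals 1 rose (ANGPT2), and of 5 cell cycle genes 1 rose (CENPF), beside 11 of all 5564 genes (0.198%) called and 440 at an unadjusted p under 0.05. All 5 cell cycle genes lay above 0 (2730 of all 5564 did), with a median of 1.82. They rest on few UMI: MKI67 was at 0 CPM in both ranges of HLS replicates 1 and 2, and at 33.7 and 35.4 CPM in INSL3-rich members of HLS replicate 3 and LLS replicate 3.

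The share of members was set against litter size. Members made up 1.73% of the barcodes that passed the limits in HLS replicate 1 (exact 95% binomial interval 1.41 to 2.11), 0.662% in HLS replicate 2 (0.490 to 0.875) and 0.652% in HLS replicate 3 (0.462 to 0.894). They made up 0.227% in LLS replicate 1 (0.127 to 0.374), 0.0369% in LLS replicate 2 (0.00447 to 0.133) and 0.741% in LLS replicate 3 (0.561 to 0.962). HLS replicate 1 stood above all other ewes, and LLS replicate 3 lay above the other 2 HLS ewes, so the groups overlapped. HLS ewes averaged 1.02% ± 0.621 (SD, n = 3) and LLS ewes 0.335% ± 0.365 (SD, n = 3), a difference of 0.681 percentage points that did not pass a two-sided exact permutation test (p = 0.3, where 3 ewes against 3 cannot give less than 0.1). Without HLS replicate 1 the difference was 0.322 points, and with at least 20 UMI of both genes per 10000 UMI of the barcode, in place of a raw sum of 20, it was 0.212 points.

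Expression in members was compared between 3 HLS and 2 LLS ewes, as LLS replicate 2 had fewer than the 10 members asked for and was left out. Of 8699 genes tested, 0 (0%) had an adjusted p under 0.05 by the quasi-likelihood test of edgeR, and the smallest adjusted p was 0.999811. At an unadjusted p under 0.05 there were 200 genes, and DESeq2 called 0, with 90 at an unadjusted p under 0.05. With 3 and 2 ewes this cannot show that the groups were alike. None of the 15 tested steroid synthesis genes was called, and their median log2 fold change was 0.06 against 0.01 over all genes tested. CYP11A1 was at -0.35 (SE 0.374), STAR at -0.36 (SE 0.353), HSD3B1 at -0.36 (SE 0.338) and LHCGR at -0.30 (SE 0.352), each with an edgeR adjusted p of 0.999811.

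Values of HLS and LLS ewes did not overlap for 1483 of the 8699 genes (17%) and for 30 of 232 list genes tested (12.9%), a share below that over all genes. REG4 and KITLG were among them, and neither passed the test. REG4 stood at 763, 14.6 and 158 CPM in the HLS ewes and at 6.45 and 12.5 CPM in LLS replicates 1 and 3, a log2 fold change of 4.86 (SE 1.31, edgeR adjusted p = 0.999811). The ewe left out, LLS replicate 2, had the highest REG4 level of all 6, 9.71 UMI per 10000 UMI in 2 cells, so over all ewes the groups overlapped. KITLG, the ligand of KIT, was at 20.2, 21.9 and 44.2 CPM in the HLS ewes and at 67.8 and 56.2 CPM in the LLS ewes, a log2 fold change of -1.10 (SE 0.397, edgeR adjusted p = 0.999811). Of 14 tested cell cycle genes, 12 lay below 0, with a median log2 fold change of -0.97, and LLS replicate 3 was the ewe with high values (TOP2A at 133 CPM against at most 35.0 in the others). Counts by list were 0 called in every list, among them 16 genes of LH receptor and cAMP signalling, 24 of cholesterol supply, 14 nuclear receptors, 26 matrix genes and 20 antioxidant and haem genes.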

How the data were processed

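Raw UMI counts per gene and barcode for the 6 ovaries were deposited by the authors, made with Cell Ranger 5.0.0, which aligns with STAR. The genome build is not given in the sources used here, and no sequence or coordinate is printed. Depth was 43329214 to 75549906 UMI per ovary. From the counts, members were found by the rule above, and levels were computed as UMI per 10000 UMI per cell, averaged per ewe. Genes measured were those with at least 0.5 UMI per 10000 UMI in members or stroma. Stroma was set by DCN, LUM and PDGFRA, granulosa by FST, CYP19, FSHR, AMH, INHBA and INHBB, and endothelium by PECAM1, KDR and CDH5. The members and gene lists were chosen with earlier results of these data known. Of 361 genes in 25 lists, 349 were in the tables, and the other 12 were not analysed here. Some genes of the lists are not reported here by name. Counts summed per ewe were tested with edgeR 4.0.16 (quasi-likelihood test, TMM, filterByExpr, Benjamini-Hochberg adjustment, threshold 0.05) in R 4.3.3, with DESeq2 1.42.0 as an alternative. Shares were tested by an exact permutation test (scipy 1.17.1). Named genes were those of the lists, called genes that averaged at least 20 CPM and moved the same way in every ewe, or did not overlap between groups (at most 12 rises and 12 falls a fit), and the 20 of largest ratio to stroma, all without LOC names. Doublets were called per ewe (2 simulated per barcode, 30 components, 30 neighbours) and kept, and their removal was an alternative. Alternatives covered the limits of the rule, thinning, normalization, the filter on low counts and each ewe left out. Ewes are labelled as separate samples. Binomial intervals are Clopper-Pearson and cover counting error only.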

Additional observations from a re-analysis of the deposited data

How the results depend on the processing

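The difference in member share was 0.212 to 1.03 points under the other limits and 0.322 to 0.884 points with each ewe left out. With 3 ewes against 3 the exact permutation test cannot give less than 0.1, so it says nothing about stability. At a UMI sum of 40 the groups did not overlap (0.393 points, exact p = 0.1). For HLS against LLS expression, 0 genes were called by edgeR without TMM factors, with doublets removed, at a UMI sum of 10, with a mitochondrial limit of 20%, and by DESeq2. Without the filter on low counts 20 genes were called, and 0 to 1 with each ewe left out (ASS1 without HLS replicate 3, LOC114108679 without LLS replicate 1). With a replicate block 2 genes were called (REG4 and LOC105603737), but no pairing of ewes is given. Deviations of same-numbered ewes from their group means correlated at 0.0274 and 0.0875. With 2 LLS ewes these deviations mirror each other, so the correlations cannot decide whether the numbers pair the ewes. Between INSL3-rich and CYP17A1-rich members 11 genes were called, against 53 without the filter, 31 with ranges of 2 in place of 3, 5 with doublets removed, 0 by DESeq2, 0 without the ewe as a term, 0 of 843 with members thinned to 3000 UMI, and 2 to 29 with each ewe left out. At a UMI sum of 10, chosen after seeing the data, 45 were called, 4 of them among the 11, and with ranges set within parts of the UMI sum 8, with 7 of the 11. With p-values adjusted over genes outside the rule only, also chosen later, the same 11 were called. Of 138 values of the 11 called genes under the alternatives, 77 kept their side of the threshold, 61 did not pass it and 0 changed sign. The cause was not tested. Deep stroma, also chosen after seeing the data, left 140 genes higher in members in place of 216. At a UMI sum of 40 neither fit could be made, since 1 ewe had enough members. LLS replicate 2, with 2 members, and LLS replicate 1, with 15, limit what the group comparison can show.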
